A study of Mus musculus with 8 samples.

Results

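The comparison described here sets mouse brain sections treated with CpG-STAT3ASO plus anti-PD1 (the combination) against sections treated with CpG-STAT3ASO without anti-PD1. It uses 4 of the 8 sections of the series, the 2 titled as combination and the 2 titled as CpG-STAT3ASO, and it was chosen by treatment, not by any measured value. All mice carried GL261, an established mouse glioma line, in the brain. Each mouse was dosed 4 times inside the skull and killed on day 21. Both groups therefore share the implanted tumour, the route, the number of doses and CpG-STAT3ASO, and they differ in anti-PD1. The other 4 sections of the series, 2 with PBS and 2 with anti-PD1 alone, enter as the background for the same antibody given without CpG-STAT3ASO. The labels give no strain, sex, age or dose, and they do not say whether the 2 sections of a group came from separate animals. Each p-value below therefore measures only the spread between these sections, which may be technical.

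PD-1, encoded by Pdcd1, is an inhibitory receptor that T cells put on their surface after activation. Its ligands PD-L1 (Cd274) and PD-L2 (Pdcd1lg2) are displayed by tumour and myeloid cells, and interferon gamma raises PD-L1. An antibody to PD-1 interrupts this contact. CpG-STAT3ASO joins a CpG oligonucleotide, which enters cells carrying the DNA sensor TLR9, to an antisense strand directed at the mRNA of Stat3, a transcription factor that restrains antigen presentation and inflammatory cytokines in myeloid cells. Glioma holds few T cells and many macrophages and microglia, some of which express arginase 1 (Arg1), an enzyme that consumes the arginine T cells need.

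Positions of single RNA molecules were measured for a panel of 100 genes by single-molecule fluorescence in situ hybridization. The 4 sections held 1669939 and 2431812 molecules with CpG-STAT3ASO against 1670279 and 3927955 with both agents, and false-positive codes made up 0.126 to 0.306% of them. Each section was divided into squares of 360 pixels, and a square with at least 20 molecules was counted as tissue. Tissue bins numbered 2340 and 2202 in the CpG-STAT3ASO sections and 2175 and 2405 in the combination sections. Molecules per tissue bin were 711 and 1102 against 766 and 1631, so combination section 2 was the most densely labelled of the 4. Its part in the per-bin results below was not tested, and each result is given for both combination sections. Levels are therefore given on 2 scales, as counts per 1000000 molecules of the 100 genes (CPM, a share) and as molecules per tissue bin. The panel holds the microglial gene Tmem119, the macrophage genes Cd68 and Adgre1 and the T cell genes Cd8a and Cd3d, each found in all 4 sections. It holds no gene of the neuron, oligodendrocyte, astrocyte and endothelial lists, so the labelled brain tissue could not be checked against them. A higher tally in a section cannot tell more cells of a type from more RNA per cell.

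Bins were classed by their molecules of Mki67, a nuclear protein of cycling cells, and Birc5 (survivin), which acts in cell division. Bins with under 10 such molecules are called low-proliferation, those with 10 to 99 intermediate, and those with 100 or more dense. Intermediate bins made up 26.6 and 27.0% of tissue with CpG-STAT3ASO, and 15.4 and 45.9% in combination sections 1 and 2. The 2 combination sections thus lay on opposite sides of the CpG-STAT3ASO pair. Group means were 26.8 ± 0.279% and 30.7 ± 21.6% (SD, n = 2 each), a difference of 3.87 percentage points with an exact permutation p of 1.0. Low-proliferation bins followed the reverse order, at 72.4 and 71.5% against 83.6 and 50.9% (difference -4.76 points, exact permutation p = 1.0). Dense bins were rare in all 4 sections, at 0.983 and 1.5% against 1.01 and 3.24%. The dense share was 0.887 points higher with the combination (exact permutation p = 0.667, n = 2 each). With 2 sections against 2, this two-sided test cannot go below 0.333. The 95% Wilson interval of the low-proliferation share was 82.0 to 85.1% in combination section 1 and 48.9 to 52.9% in section 2. Such intervals cover counting error only, and neighbouring bins are not independent.

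**Figure D1:**
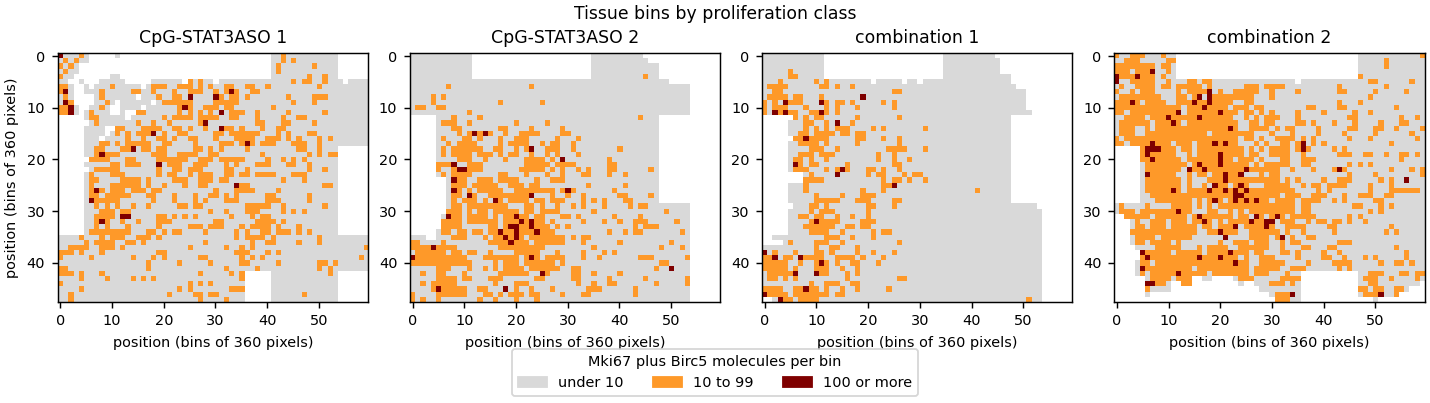
Position of every tissue bin (x and y in 360-pixel bins) in the 4 sections, coloured by class of Mki67 plus Birc5 molecules. Intermediate and dense bins form 1 large connected area in combination section 2 and scattered pieces in combination section 1.

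Proliferating tissue was also arranged differently in the 2 combination sections. Bins with at least 10 molecules of Mki67 and Birc5 formed 39 separate patches in combination section 1, and the largest held 31.7% of them. In combination section 2 they formed 63 patches, and the largest, of 991 bins, held 83.8%. The CpG-STAT3ASO sections had more patches, 91 and 71, and the share held by the largest lay between, at 46.4 and 64.6%. In the 4 sections without CpG-STAT3ASO the largest patch held 96.3 to 99.1%. Within intermediate bins the median number of Mki67 and Birc5 molecules was 22 and 26 against 25 and 29. These medians are bounded by the limits of 10 to 99 that define the class.

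No gene passed an adjusted p of 0.05 in limma for the combination against CpG-STAT3ASO, on either scale, over the whole section or within either class of bins. Of the 100 genes tested over the whole section by share, 0% were called, 2% had an unadjusted limma p under 0.05 (Arg1 among them), and limma's voom model also called 0. The share with an unadjusted limma p under 0.05 was 0% of 98 genes in low-proliferation bins and 2.11% of 95 in intermediate bins (Arg1 and Ly6d), and on the per-bin scale it was 1 gene in each of the 3 regions (1, 1.02 and 1.05%). The smallest adjusted p by share was 0.712 for the whole section, 0.996 for low-proliferation bins and 0.182 for intermediate bins. The median standard error of a log2 difference was 0.654, so differences of about 2-fold lie within the error here. What follows therefore describes levels in each section. A gene is called higher or lower in both combination sections where the 2 groups did not overlap. By share, 8% of genes were higher and 5% lower in that sense over the whole section. These shares were 10.2 and 4.08% in low-proliferation bins, and 11.6 and 10.5% in intermediate bins. Per bin, 12% were higher and 4% lower over the whole section, 20.4 and 3.06% in low-proliferation bins, and 11.6 and 6.32% in intermediate bins.

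**Figure D2:**
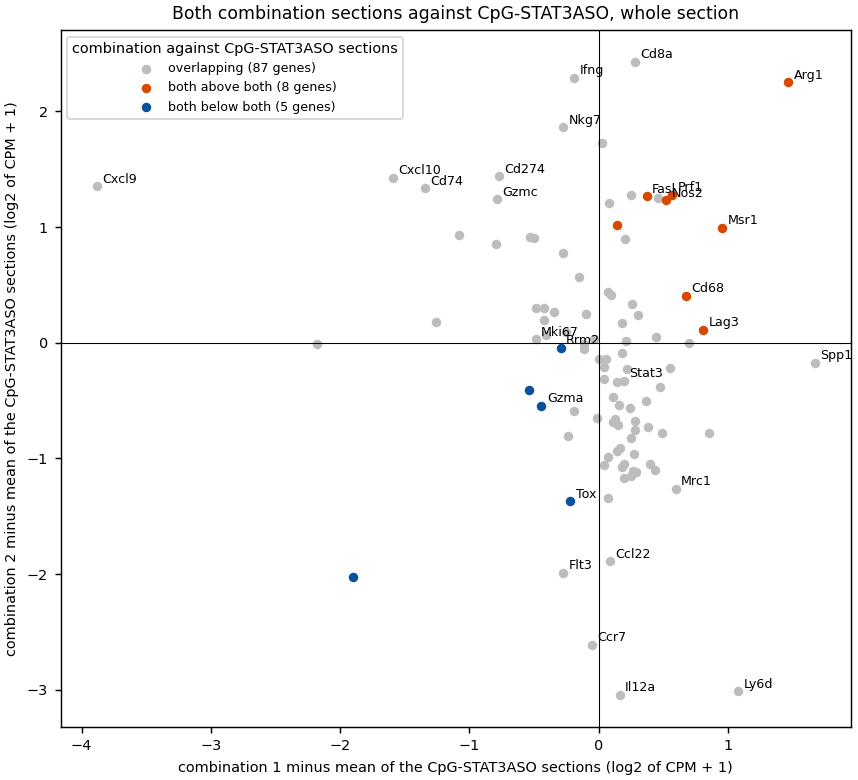
Log2 difference of each gene from the mean of the CpG-STAT3ASO sections, by share, in combination section 1 (x axis) and combination section 2 (y axis). Arg1 lies high in both sections, and Cxcl9 lies at -3.88 in section 1 and 1.35 in section 2.

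Arg1 had the smallest limma p of the genes tested over the whole section and in intermediate bins, on both scales. Its level over the whole section was 740 and 321 CPM with CpG-STAT3ASO, and 1351 and 2326 CPM with the combination. Both combination sections were higher than both others, and the means were 531 ± 296 and 1839 ± 689 CPM (SD, n = 2 each). The log2 difference was 1.86 with a standard error of 0.610 (95% interval 0.58 to 3.14, limma adjusted p = 0.712). Per tissue bin it was 0.526 and 0.354 against 1.03 and 3.79 molecules, again without overlap.

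The Arg1 difference had its highest values in intermediate bins. There Arg1 stood at 1018 and 454 CPM with CpG-STAT3ASO and at 3860 and 3343 CPM with the combination, so the 2 combination sections were close to each other. The log2 difference in those bins was 2.40 (standard error 0.566, limma adjusted p = 0.182), and per bin it was 2.69 (standard error 0.522, limma adjusted p = 0.108). In low-proliferation bins the levels were 547 and 240 against 666 and 873 CPM, a log2 difference of 1.07. Within a section, Arg1 by share was higher in intermediate than in low-proliferation bins by 0.90 and 0.92 on the log2 scale with CpG-STAT3ASO and by 2.53 and 1.94 with the combination. The test of that change across classes gave 1.33 with a standard error of 0.604 and a limma adjusted p of 0.998. In that test 0 of 95 genes passed in limma, and 3 (3.16%: Gzma, Xcr1 and Il12b) had an unadjusted p under 0.05.

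Dividing bins more finely gave the same order at most levels of proliferation. With 0 to 4 molecules of Mki67 and Birc5 per bin, Arg1 measured 0.238 and 0.191 against 0.376 and 0.418 molecules per bin. With 10 to 29 it measured 0.771 and 0.586 against 2.55 and 6.50, and with 30 to 99 it measured 1.17 and 0.804 against 6.22 and 6.53. In dense bins the groups overlapped, at 3.39 and 0.758 against 2.18 and 7.15. Across the 4 strata under 100, 6 genes were higher per bin in both combination sections in every stratum and 0 were lower in every one. They were Arg1, the scavenger receptor Msr1, the lysosomal macrophage protein Cd68, osteopontin (Spp1), the cytokine receptor chain Csf2rb and the checkpoint receptor Havcr2 (TIM-3), which were named after their values were seen. In a single stratum under 100, 11 to 23 of the 100 genes were higher in this sense and 3 to 9 lower.

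**Figure D3:**
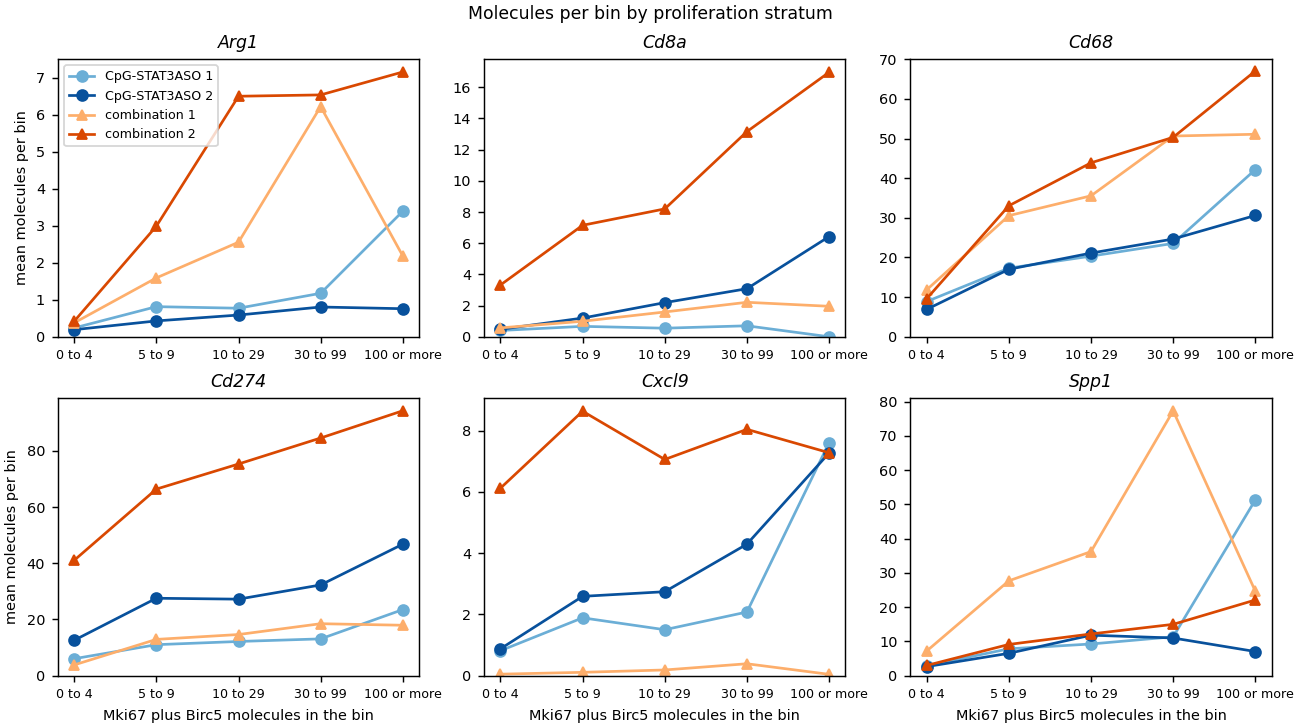
Molecules per tissue bin in the 4 sections (points joined by section) against the number of Mki67 plus Birc5 molecules in the bin. Arg1 lies higher in both combination sections than in both CpG-STAT3ASO sections in each stratum under 100 and overlaps in dense bins.

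Arg1 molecules were concentrated in patches. Bins with at least 10 Arg1 molecules numbered 29 and 7 with CpG-STAT3ASO against 43 and 192 with the combination. The largest connected patch of such bins held 17.7 and 8.97% of the Arg1 molecules of the CpG-STAT3ASO sections, against 53.5 and 75.0% in the combination sections. Outside that largest patch the level was 0.436 and 0.323 against 0.488 and 1.01 molecules per bin, so in combination section 1 most of the excess lay in 1 patch of 35 bins. Of the intermediate bins, 1.93 and 1.01% held at least 10 Arg1 molecules with CpG-STAT3ASO against 8.66 and 12% with the combination.

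Bins rich in Arg1 were higher in some macrophage genes in all 4 sections. Within intermediate bins, 4 of the 7 macrophage and monocyte genes were higher in every section (Cd68, Cd14, Csf2rb and Tgfbi), and Adgre1, Csf1r and Ccr2 varied in sign. Within low-proliferation bins Adgre1 was higher in all 4 sections too. Relative to the other intermediate bins of the same section, Msr1 was higher by 2.19, 1.62, 2.36 and 1.70 on the log2 scale (the 2 CpG-STAT3ASO sections first). Spp1 was higher by 1.65, 0.62, 2.98 and 2.04, and the lipid and lysosome gene Gpnmb by 1.35, 1.61, 1.28 and 1.18. In the same order Cd68 was higher by 0.66, 0.94, 1.06 and 1.24. The microglial gene Tmem119 was lower there by -1.0, -1.52, -1.34 and -0.58. Cd4, the coreceptor of helper T cells, was lower by -2.21, -2.58, -3.23 and -3.01. In all 4 sections Cd4 was also lower in bins with at least 3 molecules of Cd8a and Cd3d. Its level is therefore not read here as a measure of T cells. Of 99 other genes 12 were higher and 31 lower in Arg1-rich intermediate bins in all 4 sections. The CpG-STAT3ASO values rest on 12 and 6 such bins and the combination values on 29 and 132. In low-proliferation bins the counts were 24 higher and 23 lower. They rest on 14 and 1 Arg1-rich bins with CpG-STAT3ASO and on 12 and 43 with the combination.

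**Figure D4:**
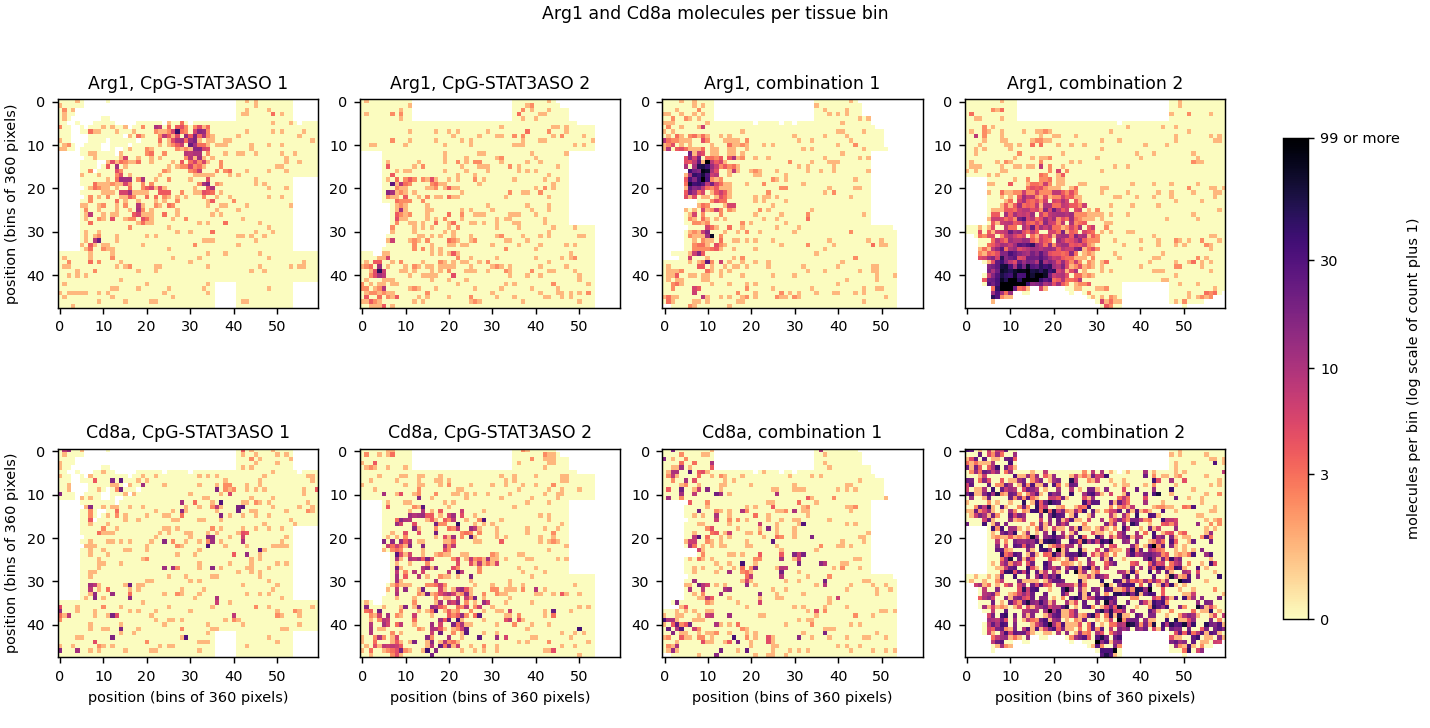
Molecules of Arg1 and of Cd8a per 360-pixel bin over the tissue of the 4 sections (x and y in bins, colour in molecules per bin). Arg1 sits mainly in 1 patch in each combination section, and Cd8a is widespread in combination section 2 alone.

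Other genes of suppressive and lipid-handling myeloid cells separated less clearly. Of the 10 on the panel, 3 were higher by share in both combination sections over the whole section (Arg1, Msr1 and Nos2), 0 were lower and 7 overlapped. Over all genes 8% were higher and 5% lower. The median log2 difference of the 10 was 0.15, beside -0.084 over all genes, and 0 were called by limma. Msr1, a scavenger receptor for modified lipoprotein, measured 1544 and 793 CPM against 2145 and 2203 CPM. In intermediate bins it measured 1.86 and 1.92 molecules per bin with CpG-STAT3ASO against 5.55 and 5.50 with the combination, a log2 difference of 1.55. Nos2, which makes nitric oxide, measured 301 and 464 CPM in intermediate bins with CpG-STAT3ASO and 885 and 1032 CPM with the combination (log2 difference 1.35, standard error 0.639, limma adjusted p = 0.999). Spp1, a secreted matrix protein of macrophages, measured 8395 and 4947 CPM against 20546 and 5705 CPM. It was thus high in combination section 1 alone by share, although per bin both combination sections were higher, at 5.96 and 5.45 against 15.7 and 9.30 molecules. Combination section 1 held 52.5 Spp1 molecules per intermediate bin, against 13.5 in combination section 2 and 9.98 and 11.5 with CpG-STAT3ASO. Mrc1 (CD206), a mannose receptor of macrophages, had 1 high and 1 low section in each group, at 1211 and 324 CPM against 949 and 261 CPM.

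Macrophage and monocyte genes mostly overlapped by share. Of 7 such genes, 1 (Cd68) was higher by share in both combination sections and 6 overlapped, with a median log2 difference of 0.04. Over all genes 8% were higher by share. Per bin 3 of the 7 were higher and 0 lower, beside 12 and 4% of all genes. Their summed level was 71106 to 115292 CPM with CpG-STAT3ASO and 97811 to 97870 CPM with the combination, and none was at 0 in any of the 4 sections. Cd68 measured 19291 and 11305 CPM against 23593 and 19543 CPM. Per bin it was 13.7 and 12.5 against 18.1 and 31.9 molecules. The adhesion receptor Adgre1 (F4/80) overlapped at 11250.4 and 5876 CPM against 8363 and 7015 CPM. Tmem119, which marks resident microglia, was at 8.94 and 8.57 molecules per bin against 8.98 and 9.09. The part of macrophage content in the Arg1 difference was not tested.

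Cd8a was high in 1 combination section. By share over the whole section Cd3d ranked the sections in the same order as Cd8a, and Cd28 and Cd4 did not. Cd8a, the coreceptor of cytotoxic T cells, measured 690 and 1093 CPM with CpG-STAT3ASO, and 1056 CPM in combination section 1 against 4674 CPM in combination section 2. Section 1 therefore lay inside the CpG-STAT3ASO range and section 2 far above it. The log2 difference of the groups was 1.35 with a standard error of 0.715 (limma adjusted p = 0.995). It came to 0.28 for section 1 and 2.43 for section 2. Per bin Cd8a was 0.488 and 1.20 against 0.806 and 7.62 molecules. By share, both combination sections lay above both others within each class of bins. In low-proliferation bins Cd8a stood at 713 and 620 against 851 and 3401 CPM, and in intermediate bins at 674 and 1720 against 1768 and 5420 CPM. The margin in intermediate bins was narrow, since CpG-STAT3ASO section 2 and combination section 1 were 1720 and 1768 CPM. Per bin the groups overlapped there, at 0.601 and 2.59 against 1.84 and 10.6 Cd8a molecules.

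Cd3d, a chain of the T cell receptor complex, overlapped throughout, at 56.5 and 159 CPM against 109 and 178 CPM. Cd28, the costimulatory receptor, was at 220 and 452 CPM against 388 and 372 CPM. Cd4 measured 18106 and 18534 CPM against 24119 and 8839 CPM. It lay above the CpG-STAT3ASO pair in section 1 and below it in section 2, and the sign of its mean difference depended on the scale (-0.33 by share, 0.0086 per bin). Cd4 was lower in bins rich in Cd8a and Cd3d in all 4 sections, so it is not read as a T cell level. Of the 4 genes on the T cell list, Cd4 included, 0 were higher or lower by share in both combination sections over the whole section. Over all genes 8% were higher and 5% lower. The median log2 difference of the 4 was 0.41. None of 5 regulatory T cell genes and none of 7 costimulatory genes separated the groups either, with medians of -0.10 and -0.07. Foxp3, the transcription factor of regulatory T cells, measured 138 and 363 CPM against 272 and 133 CPM.

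Bins with at least 3 molecules of Cd8a and Cd3d together are called T cell bins here. They made up 3.25 and 11.2% of tissue with CpG-STAT3ASO against 6.34 and 39.8% with the combination. The means were 7.21 ± 5.6% and 23.0 ± 23.6% (SD, n = 2 each), a difference of 15.8 points with an exact permutation p of 0.667. Without combination section 2 the difference was -0.865 points, so its direction rests on that section. With the CpG-STAT3ASO sections first, T cell bins made up 3.01, 5.14, 4.57 and 26.8% of low-proliferation bins and 4.02, 25.4, 15.5 and 52.4% of intermediate bins. Molecules of any gene per bin were also higher in intermediate bins, at 892, 1508, 1039 and 1949 against 635, 919, 709 and 1284 in low-proliferation bins, and their part in the order was not tested. In dense bins they were 0 of 23, which allows a share of up to 13.0%, and 42.4% with CpG-STAT3ASO against 13.6 and 64.1% with the combination. Of the Arg1-rich intermediate bins, 1 of 12 and 3 of 6 were T cell bins with CpG-STAT3ASO, and the share was 20.7 and 59.8% with the combination. The combination values lay near the T cell share of all intermediate bins in the same sections, 15.5 and 52.4%.

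The PD-1 axis, the target of the added antibody, was measured at all 3 of its genes. Pdcd1 measured 315 and 621 CPM with CpG-STAT3ASO and 607 and 1054 CPM with the combination over the whole section. CpG-STAT3ASO section 2 and combination section 1 were almost level, and the log2 difference was 0.85 with a standard error of 0.676 (limma adjusted p = 0.995). In low-proliferation bins it was 264 and 384 against 516 and 850 CPM, and in intermediate bins 389 and 931 against 937 and 1172 CPM. By share both combination sections were the higher ones in each class, though CpG-STAT3ASO section 2 and combination section 1 were nearly level in intermediate bins. Per bin Pdcd1 overlapped in intermediate bins, at 0.347 and 1.40 against 0.973 and 2.28 molecules. Cd274 measured 12119 and 17289 CPM against 8471 and 39266 CPM, so the combination sections were the lowest and the highest of the 4. Pdcd1lg2 measured 61.9 and 149 CPM against 97.9 and 321 CPM and overlapped. All 3 genes were higher in combination section 2 than in section 1, and 0 of 3 separated the groups over the whole section. Their median log2 difference from CpG-STAT3ASO by share was 0.025 for section 1 and 1.44 for section 2. Over all genes it was 0.12 and -0.11.

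Other checkpoint genes gave mixed values. Lag3, an inhibitory receptor of T cells, measured 1832 and 1835 CPM against 3210 and 1980 CPM. It was higher in both combination sections by share in each class of bins, with log2 differences of 0.46 over the whole section and 0.51 and 0.21 in low-proliferation and intermediate bins. Per bin Lag3 overlapped in intermediate bins, at 1.48 and 2.30 against 1.94 and 3.53 molecules. Havcr2 overlapped by share and was higher per bin, at 2.77 and 3.20 against 3.51 and 5.68 molecules. Tox, a nuclear factor linked to T cell exhaustion, was lower in both combination sections, at 493 and 390 CPM against 377 and 169 CPM. Per bin it was 0.351 and 0.430 against 0.289 and 0.276 molecules. Like Cd4, Tox was lower in low-proliferation T cell bins in all 4 sections, so it is not read as a T cell level. Intermediate bins were below low-proliferation bins in all 4 sections for Tox (log2 -1.24, -2.38, -1.66 and -0.42) and Lag3 (-0.24, -0.44, -0.96 and -0.32). Which cells held Lag3 was not tested. Ctla4 overlapped at 273 and 740 against 660 and 386 CPM. Of the 5 genes, 1 was higher, 1 lower and 3 overlapped by share, beside 8% higher and 5% lower over all genes.

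**Figure D5:**
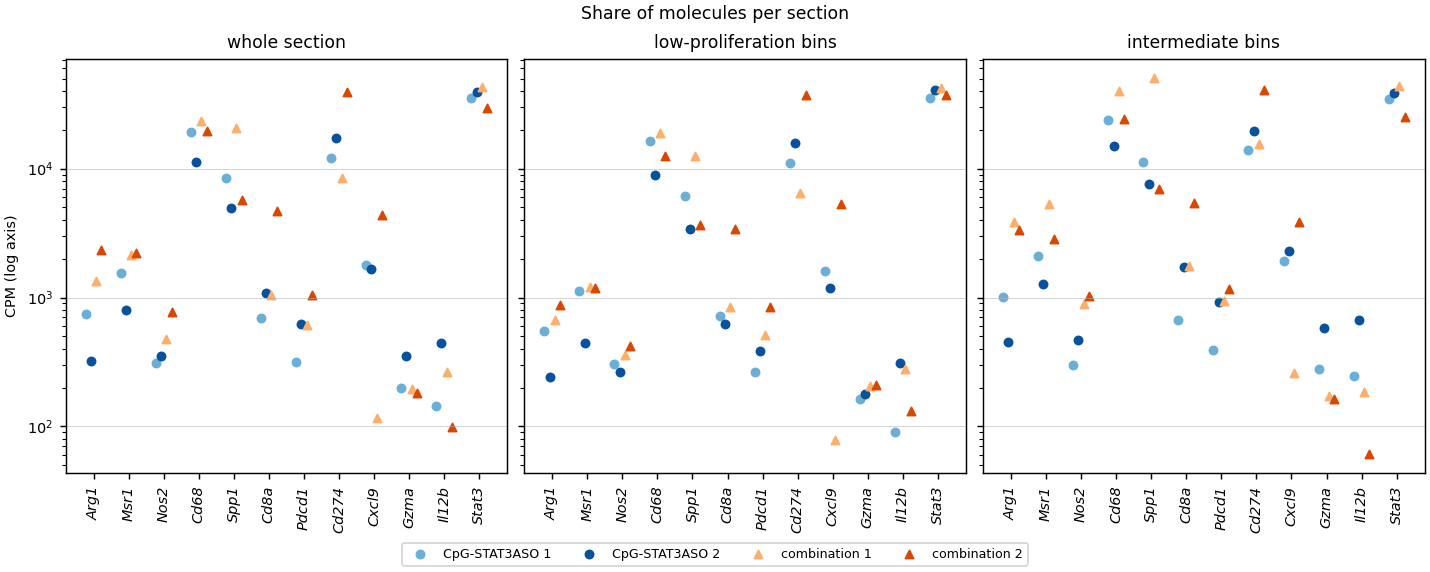
Level of selected genes in each of the 4 sections (CPM, log axis), over the whole section, in low-proliferation bins and in intermediate bins, with 1 point per section. Over the whole section Arg1 and Msr1 separate the groups, while Cd8a and Cd274 are high in combination section 2 alone. Within each class of bins Cd8a lies higher in both combination sections.

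Cytotoxic and natural killer genes were mostly highest in combination section 2. Of the 10 on the panel, 8 were higher in section 2 than in section 1. Against CpG-STAT3ASO 2 of the 10 were higher by share in both combination sections, 2 lower and 6 overlapped. Over all genes 8% were higher and 5% lower. The median log2 difference of the 10 was 0.49, with -0.17 for section 1 and 1.08 for section 2. Over all genes the medians were -0.084, 0.12 and -0.11. Prf1 (perforin), which opens pores in target cells, measured 77.5 and 168 CPM against 170 and 278 CPM. The death ligand gene Fasl measured 299 and 417 CPM against 457 and 851 CPM. Both overlapped per bin. Nkg7, a granule protein, measured 479 and 931 CPM against 552 and 2431 CPM, and Gzmb (granzyme B) 154 and 249 against 138 and 367 CPM, so these were high in section 2 alone.

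Gzma (granzyme A) was lower by share in both combination sections within intermediate bins. It measured 279 and 583 CPM with CpG-STAT3ASO against 172 and 164 CPM with the combination, a log2 difference of -1.26 (standard error 0.991, limma adjusted p = 0.999). In low-proliferation bins both combination sections were the higher ones, at 164 and 179 against 205 and 211 CPM. Per bin the groups overlapped in both classes, at 0.249 and 0.879 against 0.179 and 0.319 Gzma molecules in intermediate bins and at 0.104 and 0.164 against 0.145 and 0.271 in low-proliferation bins. The change of its difference between classes was -1.54, with a limma adjusted p of 0.930. T cell bins of intermediate tissue gave the same order. Relative to other intermediate bins of the same section, T cell bins were richer in Gzma by 4.43 and 4.11 on the log2 scale with CpG-STAT3ASO and by 1.54 and 0.90 with the combination. Nkg7 was richer there by 3.44 and 2.31 against 3.45 and 3.38, and Pdcd1 by 1.40 and 1.13 against 1.89 and 2.58. In low-proliferation T cell bins the Gzma values were 5.78, 4.0, 4.27 and 1.93, and the groups overlapped.

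Interferon-response and antigen presentation genes stood far apart in the 2 combination sections. Cxcl9, a chemokine induced by interferon gamma that attracts T cells, measured 1779 and 1656 CPM with CpG-STAT3ASO, 115 CPM in combination section 1 and 4387 CPM in combination section 2. It was found in 24.9 and 37.1% of tissue bins with CpG-STAT3ASO and in 4.60 and 77.4% with the combination. Its mean log2 difference of -1.27 had a standard error of 1.085. Without combination section 2, the log2 difference of Cxcl9 was -3.88. That fit assumes that the lone section varies like the other groups, whereas the 2 combination sections measured 115 and 4387 CPM. Cxcl10, a related chemokine, measured 5643 and 15511 CPM against 3099 and 25178 CPM. Cd74, the invariant chain of class II antigen presentation, measured 53781 and 124090 against 32227 and 206260 CPM. For each of these genes the combination sections were the lowest and the highest of the 4.

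Ifng, which encodes interferon gamma, measured 57.7 and 115 CPM against 71.5 and 402 CPM, and in combination section 1 it lay inside the CpG-STAT3ASO range. Of the 7 interferon genes 6 were higher in section 2 than in section 1. Their median log2 difference from CpG-STAT3ASO was -0.42 for section 1 and 1.02 for section 2, beside 0.12 and -0.11 over all genes. The only interferon gene higher in both combination sections by share was Ifnb1, which did not exceed the false-positive codes (2.40 and 2.89 against 3.0 and 6.37 CPM). Of 9 chemokine genes and receptors, 0 separated the groups over the whole section, beside 8% higher and 5% lower by share over all genes. Ccl5, which attracts T cells and monocytes, measured 23145 and 20082 against 12409 and 38914 CPM.

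Over all 100 genes the 2 combination sections differed from each other by a median of 0.861 on the log2 scale, and the 2 CpG-STAT3ASO sections by 0.488. The combination pair differed by over 2-fold at 45 genes and the CpG-STAT3ASO pair at 27. Combination section 1 lay over 2-fold from the CpG-STAT3ASO mean at 10 genes, and section 2 at 35. The genes furthest above section 1 in section 2 were Cxcl9 (5.24), Cxcl10 (3.02), Cd74 (2.68), Ifng (2.48), Cd274 (2.21), Cd8a (2.15), Nkg7 (2.14) and Gzmc (2.03), in log2 units. Gzmc exceeded the false-positive level in 1 of the 4 sections. Those furthest below were Ly6d (-4.09), Il12a (-3.21), Ccr7 (-2.56), Ccl22 (-1.98), Mrc1 (-1.86), Spp1 (-1.85), Flt3 (-1.71) and Cd14 (-1.63). The Ly6d count of section 2 was close to the false-positive level (90th percentile 255.8 molecules). Ccr7 and Flt3 belong to the 7 dendritic cell and antigen presentation genes. The median log2 difference of these 7 from CpG-STAT3ASO was -0.28 for section 1 and -0.014 for section 2. Over all genes it was 0.12 and -0.11.

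Both subunits of the cytokine IL-12 and 2 dendritic cell genes were lower by share in both combination sections within intermediate bins. Il12b, the shared IL-12 subunit, measured 247 and 666 CPM in intermediate bins with CpG-STAT3ASO against 184 and 60.9 CPM with the combination (log2 difference -1.93, standard error 1.232, limma adjusted p = 0.999). The Il12b count in combination section 2 lay close to the level of the false-positive codes there (90th percentile 130.6 molecules). Il12a, the other subunit, measured 815 and 433 against 348 and 140 CPM in the same bins. Flt3, the receptor for the growth factor of dendritic cell precursors, measured 661 and 258 against 147 and 214 CPM there, and Batf3, a transcription factor of cross-presenting dendritic cells, 2118 and 1832 against 1437 and 877 CPM. By share, Batf3 and Flt3 were the 2 of 7 dendritic cell and antigen presentation genes that were lower in both combination sections in these bins, with a median over the 7 of -0.81. Per bin Flt3 overlapped there, at 0.590 and 0.389 against 0.152 and 0.417 molecules, and Batf3 and both IL-12 subunits were still lower. Over all genes in intermediate bins 10.5% were lower by share, and the median was -0.023. In all 4 sections Il12a, Flt3 and Batf3 were lower by share in intermediate than in low-proliferation bins. The log2 differences were -1.24, -2.14, -2.47 and -0.64 for Il12a and -1.57, -2.11, -2.90 and -0.75 for Flt3. For Il12b they were 1.44, 1.11, -0.59 and -1.10. Il12a and Flt3 were also lower in T cell bins of intermediate tissue in all 4 sections. Which cells held these transcripts was not tested. In low-proliferation bins 1 of the 7, Flt3, was lower, at 1969 and 1113 against 1103 and 360.5 CPM, beside 4.08% of all genes. Ccr7, which guides dendritic cells to lymph nodes, measured 805 and 2195 CPM over the whole section against 1284 and 217 CPM, and Ccl22, a chemokine of mature dendritic cells, 445 and 1029 against 721 and 182 CPM. Both were low in combination section 2 alone.

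Of the 10 genes lower by share in both combination sections in intermediate bins, Ly6d had the largest difference. It measured 431 and 490 CPM against 164 and 67.4 CPM, a log2 difference of -2.12 with a standard error of 0.743 (limma adjusted p = 0.857). Over the whole section it overlapped, at 651 and 518 against 1229 and 71.1 CPM. In combination section 2 the Ly6d count was close to the false-positive level, in intermediate bins and over the whole section (90th percentiles 130.6 and 255.8 molecules).

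Stat3 and Tlr9, the 2 genes through which CpG-STAT3ASO is directed, overlapped between the groups, which share that agent. Stat3 measured 35091 and 39603 CPM with CpG-STAT3ASO and 42709 and 29714 CPM with the combination. It measured 56439 and 61479 CPM with PBS and 55402 and 68368 CPM with anti-PD1. Dense bins held 74.4 to 86.6% of molecules in those last 4 sections and 1.74 to 5.12% in the 4 compared here. These shares thus come from unlike tissue, and the part of that in the Stat3 levels was not tested. The Stat3 log2 difference between the 2 groups compared here was -0.066 by share and 0.27 per bin. Tlr9 measured 3107 and 2122 CPM against 2401 and 3059 CPM. Of the 8 genes of TLR9, NF-kB and inflammatory cytokines 0 separated the groups over the whole section. In intermediate bins 1 of the 8 was higher and 2 were lower by share, beside 11.6 and 10.5% of all genes. The higher one, Tnf, measured 750 and 1087 against 1463 and 1841 CPM by share and overlapped per bin. Mki67 measured 12206 and 9489 CPM against 7676 and 10989 CPM, and Birc5 2556 and 1751 against 1596 and 2211 CPM. Their mean differences were -0.23 and -0.17 by share and 0.11 and 0.17 per bin, so neither had a direction independent of the scale. Sirpa, a receptor on myeloid cells and neurons for the don't-eat-me signal Cd47, measured 156861 and 141323 CPM against 179097 and 69231 CPM, and 112 and 156 against 137 and 113 molecules per bin.

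The difference between the combination and CpG-STAT3ASO was also set against that between anti-PD1 and PBS, which have the same antibody contrast without CpG-STAT3ASO. Arg1 measured 1219 and 1547 CPM with PBS and 502 and 444 CPM with anti-PD1, so both anti-PD1 sections were lower there, by -1.54 on the log2 scale. With CpG-STAT3ASO the difference was 1.86 in the other direction. The interaction, the second difference minus the first, was 3.40 with a standard error of 0.862 and a limma adjusted p of 0.102. In limma 0 of 100 genes passed for the interaction over the whole section, and 3 had an unadjusted p under 0.05. The interaction for Arg1 was 3.46 in intermediate bins (limma adjusted p = 0.160) and 1.13 in low-proliferation bins (limma adjusted p = 0.912). Without combination section 1 the Arg1 interaction over the whole section was 3.79. Without PBS section 2, that of Spp1 was 3.28. Each of these fits leaves 1 section in a group. Cd8a had an interaction of 0.63 and Pdcd1 of 1.31, and neither passed.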

How the data were processed

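Each deposited file lists RNA molecules by x, y and z position and target name, per the file contents; per the labels these come from Resolve single-molecule hybridization. The unit is the position of a molecule as deposited, with no other value. Seurat 4.2.0 is listed among the tools in the submitters' processing notes, with no role. How spots were called and how large a pixel is are not stated in the sources used here. Names starting with FP (28 codes) were taken as false positives, by their name alone, and left out. A gene exceeded their level in a section when its molecules exceeded the 90th percentile of these codes.

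Molecules were tallied per section and bin (Python 3.11.15, pandas 2.3.3). Genes averaging 10 or more molecules a section were fitted as log2(CPM + 1) and as log2(molecules per 1000 tissue bins + 1) with limma 3.58.1 in R 4.3.3 (lmFit, eBayes with trend, 4 group means over all 8 sections, Benjamini-Hochberg threshold 0.05, two-sided), tested on simulated data. Fold changes of low genes are understated by the added 1. Within-section contrasts of bins were log2(CPM + 10). Shares of bins were compared by exact two-sided permutation. Alternatives changed the bin size, grid, tissue and class limits, filter, pseudocount, scaling, samples, moderation, replicate block and model, and left out each section.

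The members and the gene lists were chosen with earlier results of these data known. Named genes were a set list (the PD-1 axis, Cd8a, Cd3d, Cd4, Stat3, Tlr9, Mki67, Birc5, Arg1 and Spp1), genes past the threshold, the 6 largest non-overlapping differences each way per region, the 3 most abundant genes of each list, and the 8 largest differences each way between the combination sections. Others were chosen after their values were seen. Some genes are not reported here.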

Additional observations from a re-analysis of the deposited data

How the results depend on the processing

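Depth limits the rarest genes, and 2 sections a group limit every test. The counts of called genes stayed at 0 under each alternative run, except when 1 section was left out: 0 to 1 over the whole section by share, and 0 to 2 for the interaction both over the whole section and in intermediate bins. Without combination section 2 the called gene was Cxcl9 (-3.88), and for the whole-section interaction Cxcl9 (-3.87) and Spp1 (3.20). Without PBS section 2 the interaction called Spp1 (3.28) over the whole section, and Spp1 (5.15) and Xcr1 (-7.78) in intermediate bins. Without combination section 1 it called Arg1 (3.79) and, in intermediate bins, Cd4 (-4.47). Each of these fits left 1 section in a group, with its spread taken from the other groups, so the calls are not read as results. Replicate numbers are shared by the groups, but with only 2 pairs they did not establish pairing: same-numbered sections deviated together with a correlation of 0.253 over genes. With the number as a block the counts of called genes were 0. Leaving out 1 section, the difference ranged from -21.1 to 11.6 points for low-proliferation bins, -11.4 to 19.1 for intermediate bins, -0.229 to 2.0 for dense bins and -0.865 to 32.5 for T cell bins. Over 13 settings the Arg1 log2 difference ranged from 1.26 to 2.46 over the whole section and from 1.82 to 2.98 in intermediate bins. In low-proliferation bins it ranged from 0.48 to 1.66. Its sign could not turn per bin, with the replicate block or with a section left out. The 2 groups did not overlap in Arg1, and the other groups do not enter the difference. These ranges therefore describe its size only. Per tissue bin the sign turned for Cd4 (0.0086), Stat3 (0.27), Mki67 (0.11), Birc5 (0.17) and Rrm2 (0.17) over the whole section. In intermediate bins it turned for Stat3 (0.15) and for Mki67 (0.049) and Birc5 (0.16), which define the class. The cause was not tested.

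Leaving out 1 section also turned the sign of the log2 differences below. Mki67 and Birc5 define the bin classes, so their levels within a class are bounded by its limits. Over the whole section Cd274 ranged from -0.77 to 1.44, Cd3d from -0.19 to 1.29, Cd4 from -1.05 to 0.40, Stat3 from -0.33 to 0.20, Tlr9 from -0.20 to 0.35, Mki67 from -0.49 to 0.030, Birc5 from -0.44 to 0.10 and Spp1 from -0.18 to 1.67. In low-proliferation bins Cd274 ranged from -1.04 to 1.5, Cd4 from -0.19 to 0.37, Stat3 from -0.035 to 0.16, Tlr9 from -0.24 to 0.52, Mki67 from -0.97 to 0.11, Birc5 from -0.80 to 0.023 and Spp1 from -0.33 to 1.45. In intermediate bins Cd274 ranged from -0.088 to 1.30, Pdcd1lg2 from -0.15 to 1.58, Cd3d from -0.34 to 1.89, Cd4 from -2.36 to 0.14, Stat3 from -0.54 to 0.25, Tlr9 from -0.21 to 0.24, Mki67 from -0.62 to 0.13, Birc5 from -0.46 to 0.19 and Spp1 from -0.41 to 2.46. The cause was not tested.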
